A study of Mus musculus with 6 samples.

Results

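Bidirectional promoters are stretches of DNA from which a pair of protein-coding genes is transcribed outwards, one gene on each strand. In the GENCODE annotation of the mm10 mouse genome, 756 pairs of protein-coding genes had a minus-strand gene to the left of a plus-strand gene with their annotated 5′ ends (transcription start sites, TSSs) at most 1 kb apart. Each member was the interval from TSS to TSS widened by 200 bp to each side, and the 756 members fell into 735 separate places, because 42 pairs shared a gene with another pair (Pms1, for example, was paired with both Ormdl1 and Gm28778). The members held 1491 of 21951 protein-coding genes, or 6.79%. The distance between the TSSs ranged from 0 bp at Nsa2/Gfm2 to 987 bp at Btf3l4/Txndc12, with a median of 129 bp and quartiles of 66.8 and 240.0 bp.

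Open chromatin was assayed with ATAC-seq, which tags accessible DNA, in sorted nuclei of astrocytes from the primary visual cortex (V1) of GRfl/fl mice at postnatal day 21. GR is the glucocorticoid receptor, a hormone-activated transcription factor encoded by Nr3c1, and every animal in both groups carried the floxed allele. GR-KO animals had received, on postnatal day 0 or 1, the AAV2/5 vector GfaABC1D-Cre-T2A-EGFP-KASH-4x6T, in which the astrocyte promoter GfaABC1D drives Cre. GR-con animals received the matching vector with ΔCre in its place, and EGFP-KASH marked the nuclei that were sorted in both groups. There were 3 GR-con and 3 GR-KO libraries, each from tissue of 3 to 4 animals and each with 1 deposited list of peaks, so that a spread between libraries is a spread between pools of animals. The lists held 179462 to 198929 peaks each, with a fold over background and a −log10 p for every peak. The number of reads behind them is not known from the lists.

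At a promoter, ATAC-seq reports the nucleosome-depleted stretch where transcription factors and the polymerase machinery bind. Divergent pairs have been studied in mammalian genomes for genes of DNA repair, mitochondria and the ribosome, where both partners are usually active in most cell types and lie in a CpG island. The factors known to bind at such promoters include the ETS family, the trimeric CCAAT-box factor NFY, Sp1 and its relatives at GC boxes, NRF1, YY1 and ZNF143.

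The following sequences show what the members' inter-TSS DNA looks like. Each runs 5′ to 3′ along the plus strand of GRCm38 from 30 bp left of the minus-strand TSS to 30 bp right of the plus-strand TSS. Capitals mark matches on either strand to short motifs: ETS (CCGGAAG), NRF1 (GCGCATGCG), the CCAAT box of NFY (CCAAT), the GC box (GGGCGG), CRE (TGACGTCA), YY1 (AAGATGGCG), the TATA box (TATAAA), BANP (TCTCGCGAG), the E-box (CACGTG) and ZNF143 (ACTACANTT). A match is a description of letters and not a bound site. The 3 members with the highest fold of the strongest peak over background, given first, had short distances of 56 to 86 bp and held GC boxes, with ETS matches in 2 of them.
Cebpz/Ndufaf7, chr17:78937036-78937166: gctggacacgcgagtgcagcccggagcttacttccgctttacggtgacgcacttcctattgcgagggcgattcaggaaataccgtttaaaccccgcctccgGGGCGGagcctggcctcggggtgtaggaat
Palb2/Dctn5, chr7:122132955-122133071: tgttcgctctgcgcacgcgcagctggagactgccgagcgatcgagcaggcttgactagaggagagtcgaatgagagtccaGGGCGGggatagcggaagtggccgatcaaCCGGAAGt
Saxo2/Efl1, chr7:82648498-82648644: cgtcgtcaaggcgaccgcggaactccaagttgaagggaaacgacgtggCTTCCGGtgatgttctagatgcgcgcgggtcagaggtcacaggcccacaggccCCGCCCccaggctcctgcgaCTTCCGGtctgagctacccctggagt

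The 3 members with the highest −log10 p, the peak caller's measure of how certain the enrichment was, are shown because one of them was the strongest peak of every list.
Hjurp/Trpm8, chr1:88277603-88277691: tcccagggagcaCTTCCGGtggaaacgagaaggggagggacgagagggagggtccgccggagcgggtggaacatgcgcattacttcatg
Nop14/Grk4, chr5:34660118-34660409: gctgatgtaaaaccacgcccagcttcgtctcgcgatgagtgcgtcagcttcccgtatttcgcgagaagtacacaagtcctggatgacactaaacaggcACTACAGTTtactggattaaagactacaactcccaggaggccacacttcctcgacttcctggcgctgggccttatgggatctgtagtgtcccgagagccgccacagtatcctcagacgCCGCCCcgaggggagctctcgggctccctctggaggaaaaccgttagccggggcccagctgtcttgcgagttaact
Erp44/Invs, chr4:48279528-48279790: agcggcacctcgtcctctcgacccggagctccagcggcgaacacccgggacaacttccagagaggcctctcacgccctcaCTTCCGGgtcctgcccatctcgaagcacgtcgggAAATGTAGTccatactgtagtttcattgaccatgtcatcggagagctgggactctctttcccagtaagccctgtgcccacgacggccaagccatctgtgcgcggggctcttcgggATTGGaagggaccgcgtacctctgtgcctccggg

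The next members had the smallest p of the higher side by −log10 p and of the lower side by fold when GR-KO was compared with GR-con, although neither passed the adjusted threshold. The first, higher in GR-KO, held 9 motif matches, all CCAAT boxes or GC boxes, and the second, lower in GR-KO, held 3 GC boxes and a GC content of 80.3%.
Ccdc148/Pkp4, chr2:59160653-59160880: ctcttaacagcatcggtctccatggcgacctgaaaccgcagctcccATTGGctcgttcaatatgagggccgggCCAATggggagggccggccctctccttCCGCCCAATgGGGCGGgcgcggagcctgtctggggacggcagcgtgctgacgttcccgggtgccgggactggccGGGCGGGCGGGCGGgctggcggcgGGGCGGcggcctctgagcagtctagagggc
N4bp3/D930048N14Rik, chr11:51650812-51650984: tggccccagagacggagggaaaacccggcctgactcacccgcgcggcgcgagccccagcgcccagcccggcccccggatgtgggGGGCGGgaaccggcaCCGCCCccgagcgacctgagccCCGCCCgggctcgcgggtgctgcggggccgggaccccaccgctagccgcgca

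Members without a peak in any library are shown for contrast. The first 2 held no motif match, and 0 and 1 CpG dinucleotides, respectively. Aspa/Spata22 held 19 CpG dinucleotides, a CCAAT box and a BANP match, and was also without a peak; Aspa/Gm49340, which has the same pair of TSS positions, is the same stretch.
4930430F08Rik/1700017N19Rik, chr10:100590393-100590514: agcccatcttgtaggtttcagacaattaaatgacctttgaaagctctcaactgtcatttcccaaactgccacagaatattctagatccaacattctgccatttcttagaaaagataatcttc
Asb12/Pfn5, chrX:95557957-95558134: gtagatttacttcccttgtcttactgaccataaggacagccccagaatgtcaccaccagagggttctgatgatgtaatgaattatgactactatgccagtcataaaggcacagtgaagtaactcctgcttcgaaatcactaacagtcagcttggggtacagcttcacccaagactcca
Aspa/Spata22, chr11:73329566-73329771: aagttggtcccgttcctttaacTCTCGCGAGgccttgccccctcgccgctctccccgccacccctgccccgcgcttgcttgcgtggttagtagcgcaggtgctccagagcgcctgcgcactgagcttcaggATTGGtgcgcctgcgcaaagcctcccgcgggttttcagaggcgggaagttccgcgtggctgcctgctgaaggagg

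Peaks were present at nearly all bidirectional promoters. A member had a peak in a library if a listed peak overlapped it by at least 1 bp, and 715 of 756 members (94.6%) had one in all 6 libraries. By library, 716, 716 and 719 members had a peak in GR-con 1, 2 and 3, and 715, 719 and 718 in GR-KO 1, 2 and 3. The counts of both conditions overlapped. A total of 35 members had no peak in any library, 2 had one in 1 library, 3 in 2 libraries and 1 in 5 libraries. There were 0 members with a peak in all libraries of one condition and none of the other. The matching share over all features was not counted, so this count says nothing particular about the members. The single member with a peak in 5 libraries was Kctd19/Lrrc36, with folds of 5.86, 5.83 and 4.90 in GR-con 1, 2 and 3, no listed peak in GR-KO 1, and folds of 3.41 and 5.43 in GR-KO 2 and 3.

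The 35 members without a peak included 1 pair on the mitochondrial genome, mt-Nd6/mt-Cytb, for which no peak was listed at all. In alphabetical order the first 5 were 4930430F08Rik/1700017N19Rik, 4931428L18Rik/Pih1d3, Asb12/Pfn5, Aspa/Gm49340 and Aspa/Spata22. Aspa encodes aspartoacylase, an enzyme of oligodendrocytes. A further 3 pairs, all of histone genes, Hist1h2bq/Hist1h2ao, Hist1h2ap/Hist1h2br and Hist1h2ba/Hist1h2aa, were also without a peak. Histone genes have near-identical copies and the study's pipeline discarded reads that map to several places, so these values are uncertain, and its part in them was not tested. Among the others, chosen after their values were seen, were Pecam1/Milr1 (an endothelial adhesion molecule), Duox2/Duoxa2 (the hydrogen peroxide source of the thyroid and its maturation factor), Smyd1/Cd8b1 (a muscle methyltransferase and a T-cell coreceptor chain), Dgcr2/Tssk2 (whose plus-strand gene is a testis kinase) and Patl2/Terb2 (genes of oocytes and of meiosis).

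The peaks at members were among the strongest of their lists. The percentile of a peak is its rank within its library's own list, where 100 is the highest value. The median percentile of the members' strongest peak was between 94.5 and 95.2 by fold and between 97.8 and 98.1 by −log10 p over the 6 libraries. Their median fold was 20.0, 20.4 and 18.9 in GR-con 1, 2 and 3, and 20.7, 19.9 and 19.9 in GR-KO 1, 2 and 3, against medians of 4.40 to 4.89 over the whole lists. GR-con 3 was the lowest of the 6, and the other 5 values overlapped between the conditions. Of the 715 members with a peak in all 6 libraries, 531 (74.3%) had a mean fold percentile over 90 and 663 (92.7%) a mean −log10 p percentile over 90. Only 6 members of these 715 were below the median of the lists by fold and 3 by −log10 p.

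Hjurp/Trpm8 had the highest −log10 p of every library's list. Hjurp encodes the chaperone that deposits the centromeric histone CENP-A, Trpm8 the cold-sensing ion channel, and their TSSs lie 28 bp apart on chromosome 1. Its −log10 p was 1404, 1550 and 1451 in GR-con 1, 2 and 3, and 1504, 1248 and 1337 in GR-KO 1, 2 and 3. The conditions overlapped, and its fold, 22.9 to 26.2, was not the highest among members. Nop14/Grk4, which pairs a factor of small-subunit ribosome assembly with a receptor kinase, had −log10 p values of 721, 813 and 733 in GR-con and 843, 695 and 725 in GR-KO. Erp44/Invs, which pairs an endoplasmic reticulum chaperone with the ciliary protein inversin, had 716, 712 and 649 in GR-con and 865, 750 and 772 in GR-KO, so that all GR-KO values lay above all GR-con values. Among the 100 peak regions of highest −log10 p in each list, 13 to 21 overlapped a member and 57 to 64 the TSS window of a gene with no divergent neighbour within 1 kb.

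By fold, the highest member was Cebpz/Ndufaf7, which joins a gene of ribosome biogenesis to a methyltransferase that helps to assemble respiratory complex I. Its fold was 32.3, 32.0 and 29.6 in GR-con 1, 2 and 3, and 32.4, 31.5 and 30.1 in GR-KO 1, 2 and 3. Palb2/Dctn5, the partner of BRCA2 beside a dynactin subunit, had folds of 31.8, 28.6 and 31.3 in GR-con and 31.5, 31.9 and 33.1 in GR-KO. Saxo2/Efl1, an axonemal protein beside a GTPase of ribosome maturation, had 31.5, 28.9 and 30.1 in GR-con and 32.5, 31.3 and 30.8 in GR-KO. All 3 overlapped between the conditions.

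The peak of a bidirectional promoter was usually a single region with its summit between the TSSs. In each library 95.3% to 96.6% of members with a peak were overlapped by 1 region, and 70.2% to 72.3% held 1 summit, the position of the highest signal within a peak. The strongest summit lay between the TSSs in 68.0% to 70.4% of members, although that stretch made up 27.0% to 27.1% of the intervals on average. The summit position was also stable: over the 715 members, the median distance between the leftmost and the rightmost of the 6 libraries' strongest summits was 15 bp, and it was at most 50 bp in 633 members (88.5%). The peak regions were much wider than the gap between the TSSs, with median widths of 880 to 957 bp.

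**Figure D1:**
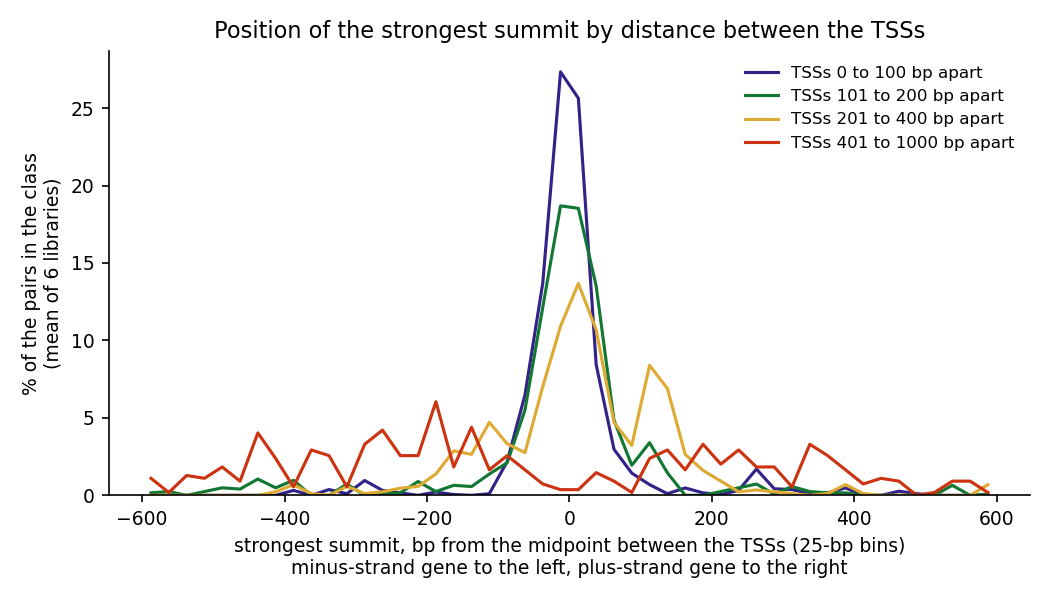
Position of the strongest summit of each member, in bp from the midpoint between the TSSs (x axis, 25-bp bins, minus-strand gene to the left), as a percent of the members of each distance class, averaged over the 6 libraries (y axis). The summits of pairs up to 200 bp apart crowd at the midpoint, whereas those of the 91 pairs over 400 bp apart spread to both sides of it.

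The number and place of the summits followed the distance between the TSSs. At 0 to 100 bp (314 members) the strongest summit lay a median of 21 to 23 bp from the midpoint, and 8.22% to 13.2% of members with a peak held at least 2 summits. Above 100 and up to 200 bp (206 members) the share with at least 2 summits was 21.4% to 26.2%, above 200 and up to 400 bp (145 members) 44.9% to 48.2%, and above 400 bp (91 members) 70.0% to 73.8%. A longer interval has more room for summits, and no test of this trend was made. In the longest class the strongest summit lay a median of 249 to 263 bp from the midpoint, and 22.5% to 27.2% of members were overlapped by at least 2 separate regions. Summits in that class lay a median of 58.5 to 65.0 bp upstream of the nearer TSS.

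The 2 measures of strength differed across the distance classes. The median fold percentile fell from 96.2 to 96.7 at 0 to 100 bp to 89.2 to 90.02 above 400 bp, with no overlap among the libraries of the 2 classes. The median −log10 p percentile was highest in the 2 middle classes, at 98.4 to 98.8 for both, and was 97.1 to 97.6 in the shortest and 97.1 to 97.7 in the longest class. A peak was present in all 6 libraries in 96.5%, 94.7%, 94.5% and 87.9% of members from the shortest to the longest class.

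For the 91 pairs over 400 bp apart, the windows of 200 bp around each TSS did not overlap and could be read separately by the summits inside them. Both windows held a summit in all 6 libraries in 42 pairs, 1 window did in 34 pairs, and neither did in 15 pairs. In the 42 pairs the stronger window had a median of 1.79 times the mean fold of the weaker one, and in 38 of them the same TSS was the stronger in every library. The largest ratio, 5.21, was at Gart/Son, where the TSS of Gart (purine synthesis) had folds of 11.1, 11.0 and 10.1 in GR-con and 10.3, 10.7 and 10.8 in GR-KO. The window at the annotated TSS of Son (a splicing cofactor) had folds of 1.62, 1.90 and 2.32 in GR-con and 2.30, 2.02 and 2.14 in GR-KO. A stronger peak overlapped the Gart/Son interval from the right, with folds of 12.6 to 15.3. Its summit lay 558 to 581 bp to the Son side of the midpoint over the 6 libraries, beyond the annotated TSS of Son and outside its window.

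Windows of equal size, 200 bp to each side of a TSS, were used to set the member genes beside other protein-coding genes. A peak overlapped 93.4% to 93.9% of the 1491 windows of member genes. The share was 89.3% to 90.1% for 871 genes whose annotated 5′ end overlaps that of a divergent coding neighbour, 83.1% to 83.6% for 770 genes divergent from a non-coding gene within 1 kb, and 52.8% to 53.4% for the 18819 other genes, called one-direction here. Base composition also differed between the classes. A window was called CpG-rich where its GC content was at least 50% and its observed over expected CpG ratio at least 0.6 from 250 bp before to 50 bp after the TSS, and 81.7% of member genes and 35.6% of one-direction genes were. Within CpG-rich windows the share with a peak was 98.4% to 98.9% for member genes and 93.2% to 93.6% for one-direction genes. Within the remaining windows it was 71.1% to 72.5% and 30.5% to 31.3%, respectively, so that the gap in mean share was 40.7 percentage points there, as against 40.6 over all windows and 5.19 in CpG-rich windows. Genes with overlapping 5′ ends lay above the member genes in the remaining windows, at 73.8% to 76.3%, and genes divergent from a non-coding gene below them, at 51.6% to 53.5%. These shares describe annotated genes in the same 6 libraries, and no test of the difference between classes was made. Where the TSSs of a member lie at most 200 bp apart, the window of each gene also holds the TSS of its partner. A peak there can count for both genes, and the comparison was not adjusted for this.

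**Figure D2:**
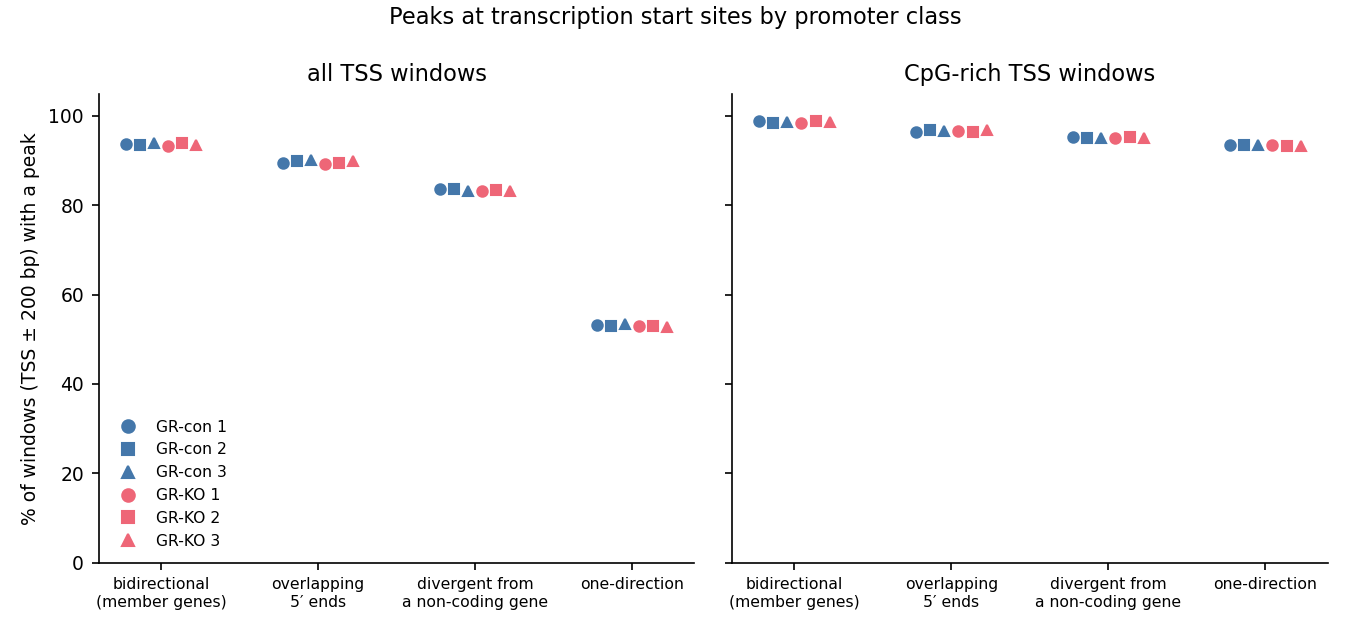
Percent of TSS windows with a peak (y axis) in the 4 promoter classes (x axis), for all windows at left and CpG-rich windows at right; each point is 1 library, blue for GR-con and red for GR-KO. The one-direction class lies near 53% among all windows and above 93% among CpG-rich windows, and the 6 libraries nearly coincide throughout.

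Among windows with a peak, those of member genes were also the strongest of the 4 classes in CpG-rich DNA. The median fold there was 19.4 to 20.9 for member genes, 17.5 to 18.7 for genes with overlapping 5′ ends, 17.0 to 18.6 for genes divergent from a non-coding gene and 16.1 to 17.7 for one-direction genes. The strongest summit of a member gene's window lay upstream of the TSS in 82.5% to 83.5% of windows, at a median of 43 to 44 bp. For one-direction genes it lay upstream in 65.8% to 67.5%, at a median of 22 to 24 bp. A summit between the TSSs of a member is upstream of both genes by definition and can be counted for each. The shares and positions of these classes are therefore not directly comparable.

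The motif content of the windows from 250 bp before to 50 bp after the TSS differed between the classes, and is given as shares with no test. ETS matches were found in 27.2% of member windows, 8.62% of one-direction windows and 10.8% of all coding windows. Within CpG-rich windows the shares were 30.8% for member and 16.7% for one-direction genes. YY1 matches were at 5.57% of member and 1.36% of one-direction windows (6.24% and 2.93% in CpG-rich windows), BANP matches at 3.29% and 0.654% (3.69% and 1.64%), and ZNF143 matches at 4.43% and 1.64% (4.19% and 1.69%). GC boxes, in contrast, were at 68.9% of member and 39.4% of one-direction windows but at 75.0% and 76.4% within CpG-rich windows. CCAAT boxes were at 44.0% and 38.8%, NRF1 matches at 4.76% and 2.27%, CRE matches at 4.49% and 2.19%, and E-boxes at 11.4% and 7.38%. Within CpG-rich windows the gaps were narrower for NRF1 (5.58% and 4.41%), CRE (4.93% and 4.08%) and the E-box (12.4% and 12.3%). For CCAAT boxes the CpG-rich shares were 43.0% and 36.8%. TATA boxes were rarer in member windows, at 4.09% against 13.9%, and 2.30% against 5.43% in CpG-rich windows. The consensus palindrome of GR itself was at 0 of 1491 member windows and at 12 of 18819 one-direction windows, or 0.0638%. A window without these letters may still hold a looser site.

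**Figure D3:**
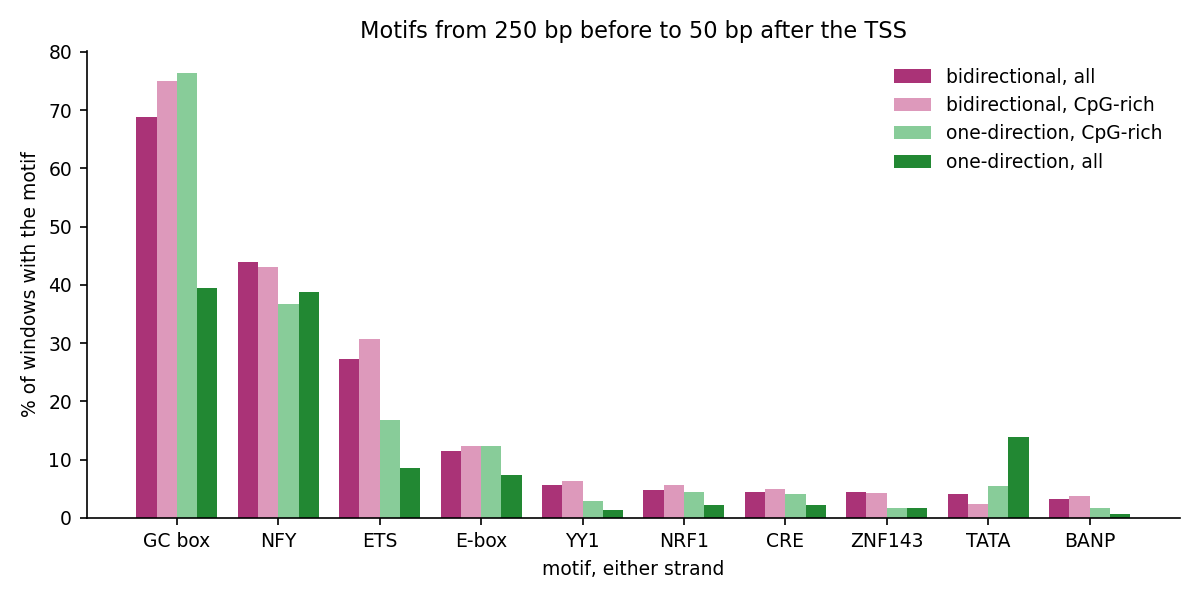
Percent of TSS windows (y axis) holding each motif on either strand (x axis), for member and one-direction genes, over all windows and over CpG-rich windows. The bars of member genes exceed those of one-direction genes in both sets for ETS, YY1, ZNF143 and BANP, whereas for the GC box and the E-box the CpG-rich bars are nearly level.

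Members with and without a motif in their interval were also set side by side over the 715 with a peak in all libraries. The 264 members with an ETS match had median folds of 20.2 to 22.03, against 17.9 to 19.8 for the 451 without. By −log10 p the ranges over the libraries overlapped, at 396 to 444 and 387 to 428. Within each of the 6 libraries, however, the members with a match had the higher median. The gap was 433 against 402 in GR-con 1 and 396 against 388 in GR-KO 3. For CCAAT boxes the ranges were apart by −log10 p and overlapped by fold. The 395 members with one had a median −log10 p of 425 to 477, against 341 to 381 for the 320 without. Their median folds were 18.8 to 20.7 against 19.2 to 20.7, with no constant order within libraries. Longer intervals have more room for a match, so these differences were not separated from the distance between the TSSs.

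The comparison of GR-KO with GR-con asked whether accessibility at these promoters differed when GR was deleted in astrocytes. The accessible site of smallest p within the Nr3c1 gene had folds of 17.4, 17.4 and 14.3 in GR-con 1, 2 and 3, and 6.68, 4.73 and 6.36 in GR-KO 1, 2 and 3. It was chosen for that p, so its values are a description with no test, and whether it lies in the floxed part of the gene was not determined here. As to cell type, the TSS windows of 8 of 10 astrocyte markers had a peak in every library, those of neurons 3 to 4 of 8, of oligodendrocytes 1 to 2 of 6, of microglia 2 of 6 and of endothelium 1 to 2 of 5. Summed folds over the astrocyte list were 57.2 to 60.0 in GR-con and 60.8 to 62.8 in GR-KO, over the neuronal list 11.95 to 22.2 and 16.8 to 18.3, and over the microglial list 11.2 to 16.1 and 14.1 to 19.7. Summed folds were 5.83 to 8.06 and 3.43 to 8.76 over the oligodendrocyte list, and 3.21 to 4.06 and 4.69 to 6.96 over the endothelial list. In no library was a peak listed at the TSS windows of Aqp4 and Aldh1l1 (astrocytes), Gad1 and Neurod6 (neurons), Sox10, Mog, Mag and Mobp (oligodendrocytes), Aif1, Csf1r, C1qa and Cx3cr1 (microglia), or Pecam1, Ly6c1 and Tek (endothelium). The astrocyte sum held genes of both directions: Gfap (folds of 5.56, 6.12 and 6.48 in GR-con and 4.84, 4.94 and 5.23 in GR-KO) and S100b (9.61, 9.01 and 9.46, and 8.99, 8.72 and 8.47) had lower values in every GR-KO library, and Gjb6 (6.33, 6.60 and 5.56, and 7.57, 7.998 and 8.11), Sox9 (9.71, 9.50 and 9.02, and 10.998, 10.3 and 9.99) and Aldoc (6.14, 5.66 and 5.80, and 6.54, 6.25 and 6.59) higher ones. The microglial marker Tmem119 was also higher in every GR-KO library (3.78, 4.89 and 6.42, and 7.76, 6.81 and 8.98). The astrocyte and endothelial sums of the 2 conditions did not overlap, the latter only through a Cldn5 peak in GR-KO 3 (fold 3.41), where Flt1 (3.55) lay within the GR-con range. Their part in the differences below was not tested.

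No bidirectional promoter passed the test in either direction. Within each library the strongest peak of every feature was ranked and the rank turned into a normal score, a scale on which 0 is the median feature, and limma was run over 165534 features, 719 of them members with a peak in at least 2 libraries. By fold, 0 of 719 members were lower and 0 higher in GR-KO at an adjusted p under 0.05, where 0.187% of all features were lower and 0.0852% higher. By −log10 p, 0 members were lower and 0 higher, where 0.397% of all features were lower and 0.243% higher. Against background shares this small, counts of 0 among 719 features say nothing particular about the members. At an unadjusted p under 0.05 by fold, 3 members (0.417%) were lower and 27 (3.76%) higher, where 5.71% of all features were lower and 6.16% higher. By −log10 p 18 (2.503%) were lower and 22 (3.06%) higher, where 5.98% and 6.83% of all features were. The members' shares lay under those of all features in each direction. The smallest adjusted p of a member was 0.132 by fold and 0.161 by −log10 p. The median standard error of a member's difference was 0.0872 by fold and 0.0832 by −log10 p. By each measure 2 of 719 members (0.278%) differed by more than 0.5 in either direction, against 11.6% and 10.5% of all features. The shares of other CpG-rich promoters were also small. By fold they were 1.16% for one-direction promoters, 0.528% for overlapping 5′ ends and 0.748% for those divergent from a non-coding gene. By −log10 p they were 1.03%, 0.880% and 0.935%, respectively.

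The members differed in balance between the 2 measures. By fold the median difference of the 719 members was 0.054 (GR-KO minus GR-con, normal score), and 70.9% lay above 0, against a median of 0.021 and 54.3% for all features. The 6310 CpG-rich one-direction promoters had a median of 0.049 with 68.4% above 0, the 568 CpG-rich promoters with overlapping 5′ ends 0.038 with 70.6%, and the 535 CpG-rich promoters divergent from a non-coding gene 0.065 with 70.7%, a larger median than that of the members. The 3920 one-direction promoters that were not CpG-rich had a median of 0.028 with 58.2% above 0. By −log10 p the median of the members was −0.0017 with 48.8% above 0, against 0.0090 with 52.1% for all features and 0.0010 with 50.3% for other promoters. All 3 GR-KO libraries lay above all 3 GR-con libraries by rank of fold in 110 of 719 members (15.3%), where 12.4% of all features did, and below them in 7 members (0.974%), where 7.48% did. By rank of −log10 p the shares were 6.12% above (44 members), where 11.7% of all features were, and 5.15% below (37 members), where 8.42% were. The split depended on the scale, a comparison added after seeing the data. By the fold values themselves, 66 members (9.18%) lay above, where 6.93% of all features did, and 11 (1.53%) below, where 9.53% did. By the −log10 p values, 44 (6.12%) lay above, where 6.05% of all features did, and 34 (4.73%) below, where 12.8% did.

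**Figure D4:**
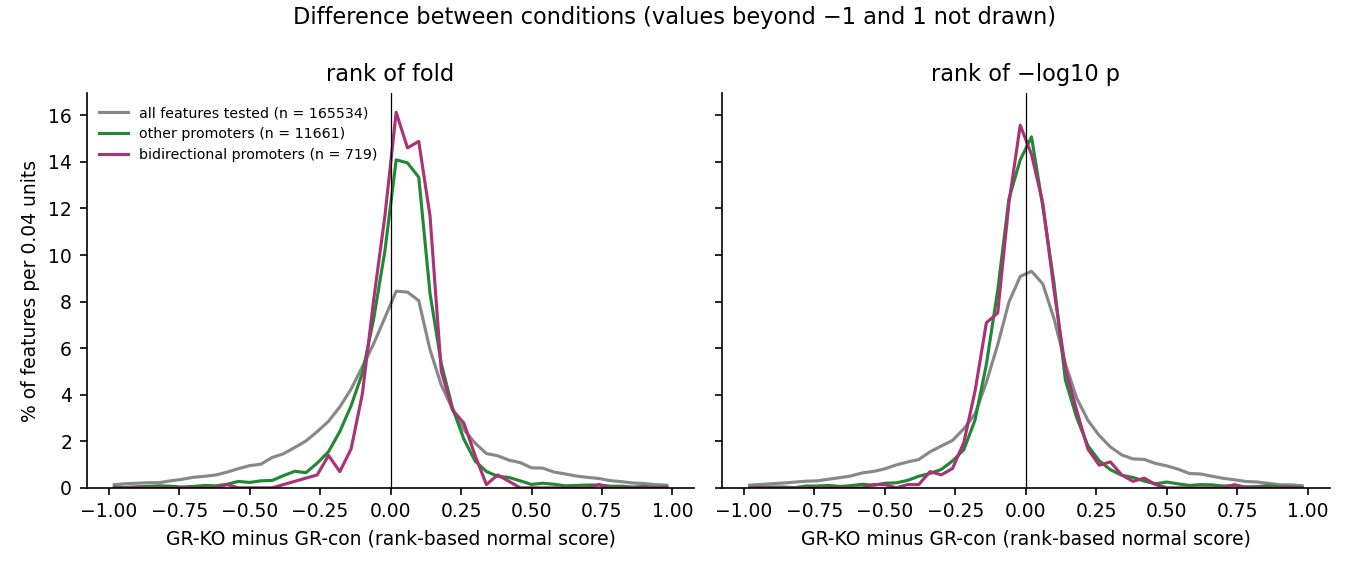
Distribution of the difference GR-KO minus GR-con in rank-based normal score (x axis) for all features tested, other promoters and the 719 bidirectional promoters (y axis, percent of features per bin), by rank of fold at left and of −log10 p at right. Both promoter curves are narrower than that of all features; by fold they are shifted to the right of 0, and by −log10 p they are centred near it.

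The members of smallest p, none of which passed the adjusted threshold, were as follows by fold. Abca17/Abca3, a pair of ABC transporter genes with TSSs 882 bp apart, had folds of 19.3, 21.5 and 19.3 in GR-con 1, 2 and 3, and 24.4, 23.3 and 23.0 in GR-KO 1, 2 and 3. All GR-KO values lay above all GR-con values. The peak lay in the Abca3 window, and the Abca17 window held no summit in any library. The difference was 0.42 with a standard error of 0.086 (limma, adjusted p = 0.132). Vezt/Fgd6, an adherens junction gene beside a Cdc42 exchange factor, had 16.0, 16.9 and 15.7 in GR-con and 19.03, 18.4 and 18.1 in GR-KO (limma, adjusted p = 0.190). Trak2/Stradb, an adaptor of mitochondrial transport beside a pseudokinase of the LKB1 complex, had 19.5, 19.8 and 18.4 in GR-con and 23.3, 21.2 and 21.2 in GR-KO (limma, adjusted p = 0.204). In these 3 pairs the conditions did not overlap.

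In the other direction by fold, N4bp3/D930048N14Rik had 12.6, 12.9 and 12.9 in GR-con and 9.26, 10.6 and 9.80 in GR-KO, a difference of −0.24 with a standard error of 0.067 (limma, adjusted p = 0.235). Lyzl4/Vipr1, a lysozyme-like gene beside a receptor of vasoactive intestinal peptide, had 17.4, 16.7 and 19.6 in GR-con and 15.4, 14.1 and 14.7 in GR-KO (limma, adjusted p = 0.382). These were the values of the Lyzl4 window. The Vipr1 window had folds of 5.25, 7.62 and 5.04 in GR-con and 5.94, 6.24 and 6.17 in GR-KO, which overlapped. Srrd/Hps4 had 15.8, 16.5 and 15.6 in GR-con and 15.4, 12.4 and 13.4 in GR-KO (limma, adjusted p = 0.405). All GR-con values exceeded all GR-KO values in each, by a small margin in Srrd/Hps4.

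By −log10 p the members of smallest p on the higher side were Ccdc148/Pkp4, Mob3a/Izumo4 and Ppp1r3d/Fam217b. Ccdc148/Pkp4, which includes the junction protein plakophilin 4, had −log10 p values of 289, 294 and 288 in GR-con and 363, 336 and 356 in GR-KO (limma, adjusted p = 0.161). Mob3a/Izumo4 had 439, 461 and 392 in GR-con and 522, 511 and 501 in GR-KO (limma, adjusted p = 0.169). Ppp1r3d/Fam217b, whose minus-strand gene targets protein phosphatase 1 to glycogen, had 93.1, 100.1 and 90.7 in GR-con and 122, 116 and 139 in GR-KO (limma, adjusted p = 0.183). The conditions did not overlap in any of the 3, but for Ppp1r3d/Fam217b the difference of 0.20 fell to 0.0066 when only peaks with their summit inside the interval were taken (limma, adjusted p = 0.985). On the lower side, Cyb5d2/Zzef1 had 531, 518 and 523 in GR-con and 423, 513 and 430 in GR-KO (limma, adjusted p = 0.268). Mfap1a/Wdr76, with a spliceosome gene on the minus strand, had 295, 372 and 363 in GR-con and 291, 279 and 247 in GR-KO (limma, adjusted p = 0.273). The conditions did not overlap in either of these.

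**Figure D5:**
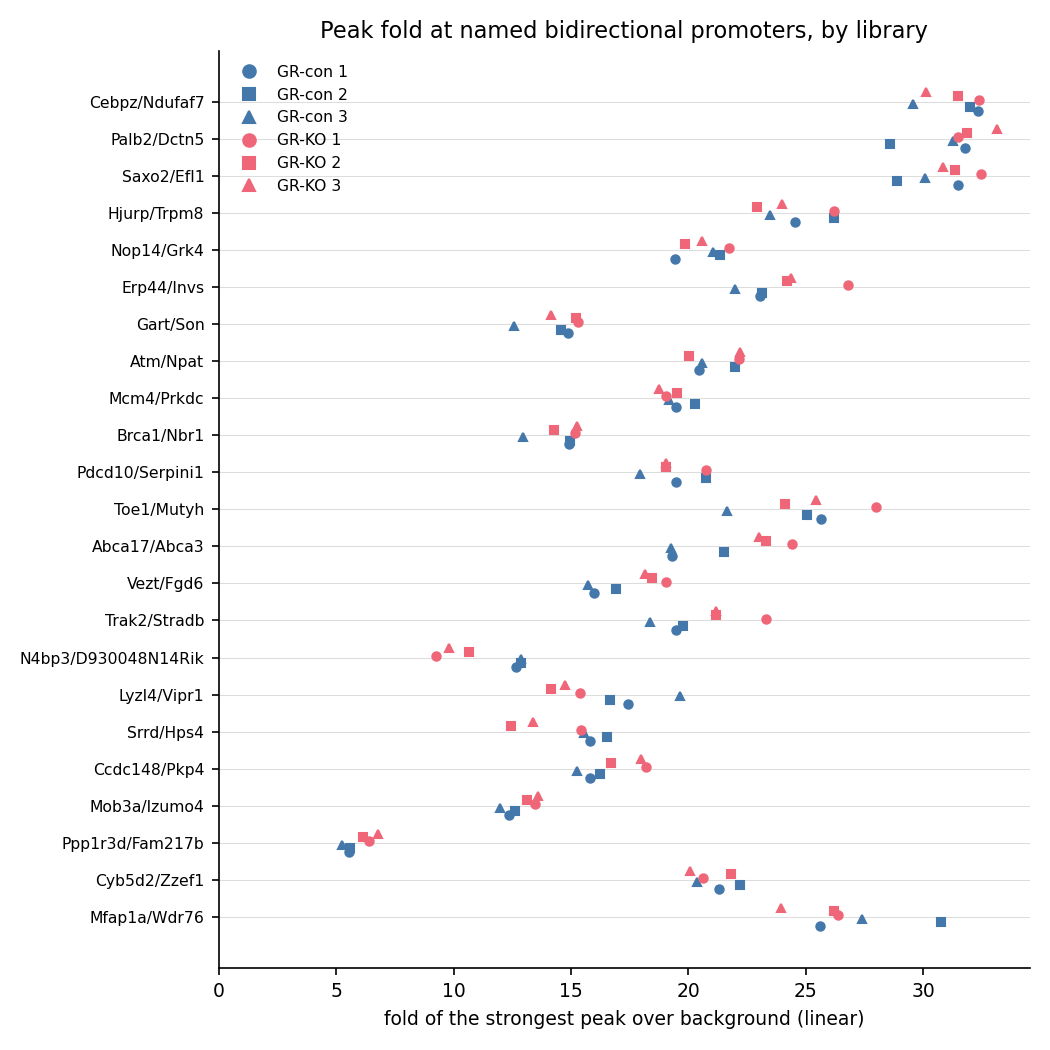
Fold of the strongest peak over background (x axis, linear) in each library (blue GR-con, red GR-KO; symbols mark replicates 1 to 3) for named members (y axis): the 3 highest by each measure, 6 known pairs and those of smallest p described in the text. Folds run from about 5 at Ppp1r3d/Fam217b to above 30 at the highest 3, and none of these members passed the adjusted threshold.

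Of 16 divergent pairs known from the literature that were looked up, 7 were members and 9 had annotated 5′ ends that overlap each other, which the definition leaves out. The pairs looked up were chosen by name, so their functions describe that choice. Atm/Npat, the DNA damage kinase beside a regulator of histone transcription, had folds of 20.4, 21.97 and 20.6 in GR-con and 22.2, 20.0 and 22.2 in GR-KO. Mcm4/Prkdc, a subunit of the replicative helicase beside the DNA-dependent protein kinase, had 19.5, 20.3 and 19.2 in GR-con and 19.1, 19.5 and 18.7 in GR-KO. Toe1/Mutyh, a deadenylase beside a base excision repair glycosylase, had 25.7, 25.0 and 21.6 in GR-con and 28.0, 24.1 and 25.4 in GR-KO. The conditions overlapped in each of these.

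Brca1/Nbr1, a homologous recombination gene beside an autophagy receptor gene, had folds of 14.9, 15.0 and 12.9 in GR-con and 15.2, 14.3 and 15.2 in GR-KO. Pdcd10/Serpini1, a gene of cerebral vessel integrity beside neuroserpin, had 19.5, 20.8 and 17.9 in GR-con and 20.8, 19.02 and 19.1 in GR-KO, and Gart/Son had 14.9, 14.6 and 12.6 in GR-con and 15.3, 15.2 and 14.1 in GR-KO. None of the 6 pairs described here passed the test, with adjusted p from 0.577 to 0.940 by fold and from 0.446 to 0.954 by −log10 p (limma). By −log10 p the conditions did not overlap at Brca1/Nbr1, with 525, 516 and 432 in GR-con and 540, 526 and 539 in GR-KO.

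The gene lists, taken by patterns in the gene symbol and not by function, were represented unevenly. The histone pattern does not separate core from linker histones. The cilia list takes every numbered Ift, Bbs, Cep or Ttc symbol, and the repair list every numbered Parp. Histones had 27 of 67 genes in members (40.3%), followed by DNA repair and replication with 31 of 113 (27.4%). RNA polymerases and Mediator had 14 of 58 (24.1%) and cilia 24 of 100. The respiratory chain had 24 of 103 (23.3%) and mitochondrial ribosomal proteins 18 of 78 (23.1%). Splicing had 11 of 58 (18.97%), the proteasome 8 of 50 (16.0%), chaperones 13 of 84 (15.5%), aminoacyl-tRNA synthetases 5 of 37 (13.5%), cytosolic ribosomal proteins 8 of 83 (9.64%) and zinc finger genes 26 of 465 (5.59%). Over all coding genes the share was 6.79%. The order depends on leaving out pairs with overlapping 5′ ends, which held a further 15 mitochondrial ribosomal genes, 13 of the respiratory chain, 9 of repair and replication, and 0 histone genes. None of the 54 genes of the glucocorticoid and astrocyte list, such as Fkbp5, Per1, Gfap and Aqp4, was in a member, and 2 of them were in pairs with overlapping 5′ ends.

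Peaks in all 6 libraries were found at every member of 8 of these lists, the exceptions being 11 of 14 histone members, 7 of 8 cytosolic ribosomal members, 30 of 31 repair and replication members and 21 of 23 zinc finger members. The median of the mean fold percentile ran from 90.3 for the histones to 97.4 for DNA repair and replication. Within the histones, Hist1h2ah/Hist1h2bk was highest (fold 25.6 ± 0.925 in GR-con and 25.6 ± 1.21 in GR-KO, SD, n = 3 each) and Bola1/Hist2h2ab lowest (5.15 ± 0.109 and 5.62 ± 0.208). Within DNA repair and replication, Trmt6/Mcm8 was highest (30.05 ± 0.494 and 31.3 ± 1.84) and Cenpj/Parp4 lowest (7.67 ± 0.35 and 6.82 ± 0.876). Within cilia, Cep128/Tshr was highest (30.1 ± 2.89 and 31.7 ± 2.14) and Ddx5/Cep95 lowest (9.47 ± 0.343 and 10.1 ± 0.243).

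For genes of mitochondria, the respiratory chain list was led by Cebpz/Ndufaf7, described above, and was lowest at Gm27021/Cox4i1 (10.8 ± 0.923 in GR-con and 11.2 ± 1.04 in GR-KO). Mitochondrial ribosomal proteins ran from Mrpl37/Cyb5rl (25.9 ± 2.43 and 26.7 ± 0.287) to Eme2/Mrps34 (10.3 ± 0.898 and 9.5 ± 0.713). Aminoacyl-tRNA synthetases were lowest at S100pbp/Yars (15.5 ± 0.865 and 16.9 ± 0.706). For protein synthesis and turnover, cytosolic ribosomal proteins ran from Rpl9/Lias (25.6 ± 1.03 and 25.5 ± 1.01) to Polr3a/Rps24 (8.17 ± 0.659 and 7.71 ± 0.535), which was also the lowest of the RNA polymerases and Mediator. The proteasome ran from Mrpl32/Psma2 (22.7 ± 0.636 and 22.2 ± 0.945) to Psme2/Rnf31 (14.4 ± 0.915 and 14.4 ± 0.734).

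Chaperones and zinc finger genes shared their highest member, Cct6b/Zfp830 (26.7 ± 1.59 and 25.9 ± 0.481), with chaperones lowest at Lrrc42/Hspb11 (13.3 ± 1.95 and 14.5 ± 0.975) and zinc finger genes at Zbtb25/Zbtb1 (8.63 ± 0.921 and 8.84 ± 0.511). Splicing was highest at Prpf38a/Orc1 (25.4 ± 1.66 and 24.5 ± 1.71). No list had a member that passed the adjusted threshold. At an unadjusted p under 0.05 by fold, 0 members of these lists were lower and at most 2 of a list higher, where 5.71% of all features were lower and 6.16% higher. By −log10 p, 1 member was lower in each of the respiratory chain, RNA polymerase and Mediator, repair and replication, and zinc finger lists, and at most 2 of a list were higher, where 5.98% of all features were lower and 6.83% higher.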

How the data were processed

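Nuclei of V1 astrocytes were sorted by the authors (50000 events per library) from GRfl/fl mice, and ATAC-seq reads were processed with the ENCODE ATAC-seq pipeline against mm10, with multimapping reads discarded and peaks called at p = 0.01 in each library. The deposited lists give, for each peak, the fold over background (a ratio), the −log10 of its p-value and its summit. Depth in reads is not known from them. Genes came from GENCODE M21, with the gene 5′ end as the TSS, and sequences from the RefSeq genome GRCm38.p6, both of the mm10 build.

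A feature (756 members, 20438 promoters of other coding genes, 189200 sites elsewhere) took the strongest peak overlapping it by at least 1 bp. Ranks were taken within each library over the features that 2 or more libraries listed, a missing peak taking the lowest rank. Normal scores of the ranks were compared with limma 3.58.1 (R 4.3.3, with a variance trend, two-sided, Benjamini-Hochberg adjustment over 165534 features), separately for fold and −log10 p. The script was tested on simulated data. Groups were the labelled GR-con and GR-KO replicates, without a replicate block, and p-values measure the spread between pools of animals. The study itself compared read counts, which are not used here. Classes of promoters were described without a test.

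Members named were the 3 highest by fold and by −log10 p, the 3 with the smallest p in each direction by each measure, the first 5 in alphabetical order without a peak, the known pairs, and the highest and lowest of each list, and a few that this rule names are not reported here. The members, lists and tests were chosen with earlier results of these data known. Alternatives changed the peak threshold, list length, overlap, presence filter, scaling, variance trend, pairing, distance and libraries.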

Additional observations from a re-analysis of the deposited data

How the results depend on the processing

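The counts of members that passed the test stayed at 0 in both directions and by both measures under the 18 alternative fits to each count. An adjusted p of 0.01 on the same fit was also listed, but a count of 0 at 0.05 fixes it at 0. None of the 12 members named for their p passed under an alternative, and none changed sign. By summits inside the feature, however, the difference of Ppp1r3d/Fam217b fell from 0.20 to 0.0066 (limma, adjusted p = 0.985), and without GR-con 3 that of Lyzl4/Vipr1 went from −0.31 to −0.18. The smallest adjusted p of a member ranged from 0.119 to 0.320 by fold and from 0.0995 to 0.286 by −log10 p. At an unadjusted p under 0.05 the members numbered 1 to 7 lower and 14 to 34 higher by fold, and 7 to 30 lower and 15 to 27 higher by −log10 p. In the fit reported, 9460 of all 165534 features were lower and 10196 higher by fold at that p, and 9891 and 11313 by −log10 p, larger shares than those of the members. Calls over all features were less stable: by fold 309 were lower and 141 higher, against 1103 and 739 without the variance trend, 9 and 2 with a replicate block, 55 and 55 without GR-con 1, and 66 and 31 at an adjusted p of 0.01. By −log10 p 657 were lower and 402 higher, against 1216 and 1080 by summits inside the feature and 117 and 46 with the replicate block. With the replicate block 0 members passed. Same-numbered libraries did not deviate together (r across features of 0.025, −0.011 and 0.022 by fold). The labels do not say whether they were prepared together, and a low correlation cannot settle it.

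The share of members with a peak in all 6 libraries, 94.6%, was 93.9% by summits inside the interval, 93.8% for overlaps over 200 bp, 95.2% on autosomes, 95.5% for TSSs at most 500 bp apart and 94.0% for intervals not widened. The median percentile by fold, 94.9, was 94.5 for peaks with q of 0.01 or less and 95.2 for TSSs at most 500 bp apart. By −log10 p it was 97.9, against 97.7 at that q and 97.8 by summits inside. The difference in peak share between member and one-direction windows, 40.6 percentage points, was 40.97 at that q, 41.6 by summits inside, 40.1 on autosomes and 41.6 for windows of 100 bp. In settings added after seeing the data it was 5.19 points within CpG-rich windows and 36.2 without olfactory and vomeronasal receptor genes.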

Other observations

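Of the 9 known divergent pairs whose annotated 5′ ends overlap, 8 had a peak in all 6 libraries. Hspd1/Hspe1, the mitochondrial chaperonin and its co-chaperonin, had a fold of 15.1 ± 1.02 in GR-con and 15.2 ± 0.700 in GR-KO (SD, n = 3 each). Fen1/Tmem258, which includes the flap endonuclease of DNA replication, was the highest, at 23.9 ± 0.104 and 23.9 ± 1.10. Col4a1/Col4a2, the basement membrane collagens, had 10.6 ± 1.03 and 11.1 ± 0.532. Tk1/Afmid, which includes thymidine kinase, had a listed peak only in GR-con 1 (fold 2.28), GR-KO 1 (2.63) and GR-KO 3 (3.19).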
